A study of Mus musculus with 745 samples.

Results

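The receptors and ligands described here are 7 genes of the VEGF and angiopoietin systems, taken by symbol from the 20607 gene symbols of the count table: the receptors Kdr, Flt1, Nrp1, Tek and Tie1 and the ligands Angpt2 and Vegfc. All 7 were in the table and all 7 passed the filter on low counts. The cells were primary brain endothelial cells of mice aged 3 months, released from brain tissue with a dissociation kit and isolated by fluorescence-activated sorting. Each of the 745 samples was 1 cell. The titles divide the cells into sets named Young1 (30.2% of the cells), Young2 (34.6%) and AY_Y3 (35.2%). The sources used here give no strain, genotype, treatment or sorting markers, and do not say if each set came from separate animals. The p-values below therefore rest only on how much differences between classes of cells varied over these 3 sets. That spread may be technical.

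Vascular endothelial growth factors act through receptor tyrosine kinases on the endothelial surface. KDR carries most of the mitogenic signal, FLT1 binds the same ligand with high affinity and can act as a decoy, and NRP1 is a coreceptor that also binds semaphorins. The TEK receptor (Tie2) keeps quiescent vessels stable when bound by angiopoietin-1 from mural cells, TIE1 is its orphan partner, and angiopoietin-2, made by endothelial cells, can oppose that signal. VEGF-C is best known as a ligand of FLT4 in lymphatic growth and can also bind KDR. Brain endothelium runs in a continuum of arterial, capillary and venous segments.

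Before the comparisons, 110 wells with more than 2000 CPM (counts scaled to a total of 1000000 per cell) summed over the markers of another brain cell type were set aside, among them 80 over that limit for pericyte markers. The 635 wells kept were 87.6% of Young1, 82.2% of Young2 and 86.3% of AY_Y3. Total counts per cell ran from 52819 to 2421434, with medians of 757949 in Young1, 713031 in Young2 and 411397 in AY_Y3. All 9 general endothelial markers were counted in each vessel class, and Cldn5, which encodes the tight-junction protein claudin-5, was counted in 99.1% of the wells kept.

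Cells were placed along the vessel by 3 marker pairs, none of which contains a receptor or ligand described here: Bmx and Gkn3 for arterial, Nr2f2 and Il1r1 for venous, Cxcl12 and Rgcc for capillary. A cell took the pair with the highest standardised score if it led the next pair by at least 0.5. This gave 99 arterial-marked cells (20, 42 and 37 of Young1, Young2 and AY_Y3). Venous-marked cells numbered 34, 37 and 40 in the same sets and capillary-marked cells 79, 64 and 94, and 29.6% of the cells stayed unclassed. Such a class is a range on a score and not a cell type: 40 cells lay within 0.1 of the margin. In arterial-marked cells the median over cells was 777.5 CPM for Cxcl12 and 0 for Rgcc, Nr2f2 and Il1r1. In venous-marked cells it was 342.3 CPM for Cxcl12, 108.7 CPM for Rgcc and 0 for Bmx and Gkn3. In capillary-marked cells the median was 0 for Bmx, Gkn3, Nr2f2 and Il1r1.

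Flt1 was the receptor counted in nearly every cell, whereas each ligand was counted in a small minority of cells. The mean per-cell level of Flt1 was 2496 CPM in Young1, 2665 CPM in Young2 and 2308 CPM in AY_Y3, and it was counted in 98.9% ± 0.28 of cells (SD, n = 3 sets). Kdr averaged 401.5 CPM in Young1, 391.0 CPM in Young2 and 356.2 CPM in AY_Y3, and was counted in 63.8% ± 4.31 of cells. Tek averaged 385.1, 342.7 and 347.1 CPM in the same order of sets and was counted in 74.3% ± 2.44 of cells. For these 3 receptors the highest set was at most 1.15 times the lowest.

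Nrp1 averaged 174.5 CPM in Young1, 192.2 CPM in Young2 and 165.6 CPM in AY_Y3, and its median cell had no count in any set. Tie1 varied more between sets, with 339.4 CPM in Young1, 459.0 CPM in Young2 and 366.9 CPM in AY_Y3. CPM values are not divided by transcript length, so levels are compared here between cells and sets and not between genes. The differences between sets have no replicate check, since each set is 1 sample.

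Detection depended in part on depth. With every cell thinned to 50000 counts, the share of cells with a count was 98.2% for Flt1, 65.2% for Tie1, 63.8% for Tek, 55.2% for Kdr and 35.3% for Nrp1, each a mean of 3 sets. Of the 635 cells, 20.8% had a count of all 5 receptors and 2 cells had none of them. The share with all 5 was 10.1% of arterial-marked cells, 38.7% of venous-marked cells and 21.9% of capillary-marked cells, and 6.06%, 27.03% and 16.03% of the same classes after thinning. Median genes per cell after thinning were 1886, 2239 and 1549 in the same classes. The part of this in the shares was not tested.

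**Figure D1:**
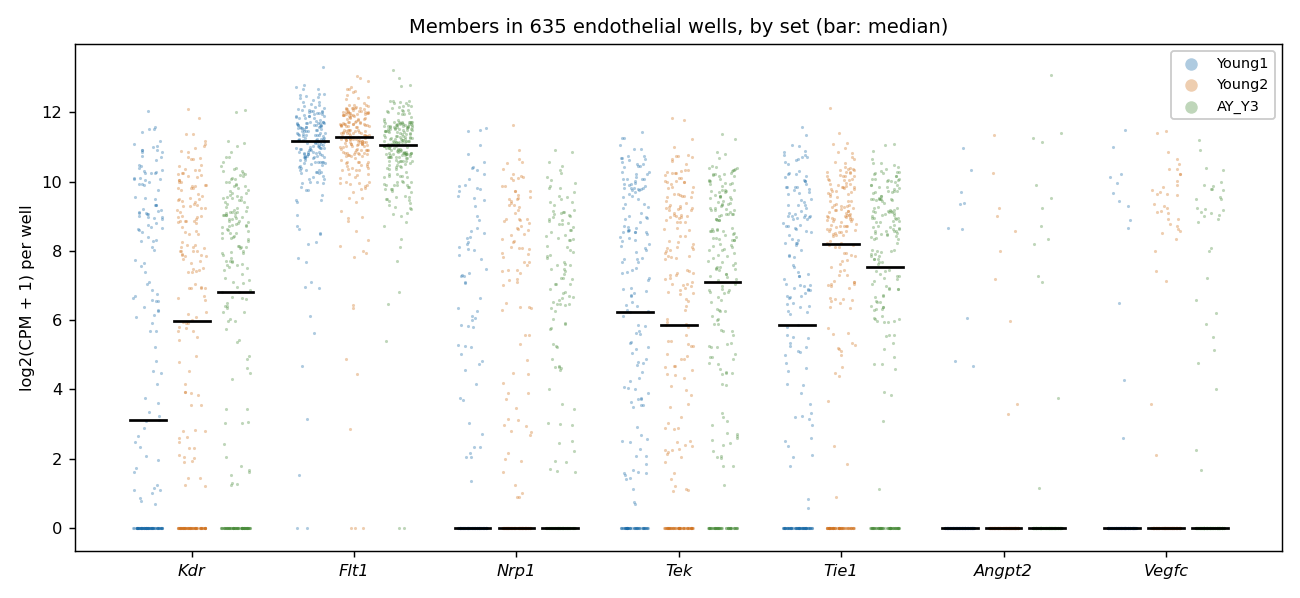
Each point is 1 of the 635 endothelial wells, its height log2(CPM + 1) of the gene named on the horizontal axis, coloured by set, and the black bar is the median of the set. Flt1 was high in nearly every well, the other receptors were split between wells at 0 and wells of high level, and Angpt2 and Vegfc were at 0 in most wells.

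The ligands were rare. Vegfc was counted in 83 of 635 cells (13.1%, exact 95% interval 10.5 to 15.9), with 13 cells in Young1, 36 in Young2 and 34 in AY_Y3. Its mean level was 57.8 CPM in Young1, 141.02 CPM in Young2 and 90.9 CPM in AY_Y3. Angpt2 was counted in 34 cells (5.35%, exact 95% interval 3.74 to 7.40), with 10 cells in Young1, 10 in Young2 and 14 in AY_Y3. Its means of 32.4 CPM in Young1, 27.4 CPM in Young2 and 87.6 CPM in AY_Y3 rested on few cells: the 10 highest held 78.5% of all Angpt2 CPM. The highest was an unclassed cell of AY_Y3 with 8708 CPM, and without it the mean of that set was 49.3 CPM. The exact intervals treat the cells as independent draws pooled over sets and leave out the spread between sets. For Vegfc the share was 6.60% in Young1 and 16.98% in Young2, both outside the pooled interval, and in AY_Y3 it lay inside. For Angpt2 the share of each set lay inside the pooled interval. Reads carry no molecular identifiers.

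The stretches before the start sites of Kdr and Nrp1 (lower in arterial-marked than in capillary-marked cells, below), Vegfc (highest in arterial-marked cells) and Tie1 (classes overlapping) are printed to set these genes side by side. They are the 250 bases upstream of the RefSeq start on GRCm38.p6, 5′ to 3′ on the gene's strand, from a table that held 6 of the 7 genes. The table had no match for Angpt2. Capitals mark each match of the ETS core AGGAAG or of the GC box GGGCGG on either strand; no match of either motif overlapped the other. The locations are chr5:75978456-75978705 on the minus strand for Kdr, chr8:128358823-128359072 on the plus strand for Nrp1, chr8:54077282-54077531 on the plus strand for Vegfc and chr4:118489850-118490099 on the minus strand for Tie1.
Kdr: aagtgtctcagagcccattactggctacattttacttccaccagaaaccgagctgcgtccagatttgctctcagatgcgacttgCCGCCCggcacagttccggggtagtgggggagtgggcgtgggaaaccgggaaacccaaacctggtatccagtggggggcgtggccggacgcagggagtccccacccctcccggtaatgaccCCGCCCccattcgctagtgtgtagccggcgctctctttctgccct
Nrp1: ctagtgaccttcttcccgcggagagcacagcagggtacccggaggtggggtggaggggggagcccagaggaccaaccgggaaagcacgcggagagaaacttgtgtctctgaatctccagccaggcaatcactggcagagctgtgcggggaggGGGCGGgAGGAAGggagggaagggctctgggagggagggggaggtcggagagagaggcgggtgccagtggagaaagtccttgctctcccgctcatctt
Vegfc: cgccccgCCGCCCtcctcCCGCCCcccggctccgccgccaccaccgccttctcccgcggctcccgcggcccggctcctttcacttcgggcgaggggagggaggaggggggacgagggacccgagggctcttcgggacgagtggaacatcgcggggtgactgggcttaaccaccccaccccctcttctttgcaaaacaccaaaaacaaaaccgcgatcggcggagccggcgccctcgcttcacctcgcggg
Tie1: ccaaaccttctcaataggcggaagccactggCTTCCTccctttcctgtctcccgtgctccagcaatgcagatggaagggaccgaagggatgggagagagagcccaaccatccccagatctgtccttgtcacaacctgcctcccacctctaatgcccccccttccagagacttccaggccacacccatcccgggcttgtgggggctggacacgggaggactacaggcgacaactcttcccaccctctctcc
Kdr and Vegfc each had 2 GC boxes and no ETS core, Nrp1 had 1 of each, and Tie1 had 1 ETS core and no GC box. Of 32851 RefSeq promoters, 29.5% held the ETS core and 32.7% held the GC box in the same 250 bases. These matches describe the letters only.

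Kdr, the main signalling VEGF receptor, was lower in arterial-marked than in capillary-marked cells. Its CPM in the summed counts was 76.2 in Young1, 289.6 in Young2 and 89.4 in AY_Y3 in arterial-marked cells, against 414.6, 635.9 and 470.7 in capillary-marked cells. All 3 arterial-marked values lay below all 3 capillary-marked values. The log2 fold change was -1.87 ± 0.47 (SE), with p = 0.00513 before and 0.251 after adjustment over the 9074 genes tested (edgeR quasi-likelihood test, Benjamini-Hochberg), so the difference did not pass the threshold of 0.05. The adjusted p ran from 9.3e-05 to 0.785 over 14 other settings and passed in 4 of them, DESeq2 and limma among them.

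Nrp1, the coreceptor, had the same order of classes. It stood at 27.9, 71.7 and 74.7 CPM in arterial-marked cells of Young1, Young2 and AY_Y3, against 153.8, 302.3 and 261.6 CPM in capillary-marked cells, again without overlap. The log2 fold change was -2.07 ± 0.36, with p = 0.000549 before adjustment and 0.0994 after it in edgeR, so it did not pass either. It passed in 4 of 14 other settings, but with classes set by detection alone the adjusted p in edgeR was 0.925 and with longer marker lists it was 0.738, so the size of this difference depended on how cells were classed.

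Vegfc, the ligand, ran the other way. Its CPM was 165.7 in Young1, 464.5 in Young2 and 362.2 in AY_Y3 in arterial-marked cells, against 0, 45.8 and 14.9 in capillary-marked cells. The lowest arterial-marked set lay above the highest capillary-marked set. The log2 fold change was 5.19 ± 1.85 with an adjusted p of 0.467 in edgeR (0.0251 unadjusted), and of 14 other settings only DESeq2 and limma passed it.

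Flt1, the high-affinity receptor, was at 1741, 2684 and 1948 CPM in arterial-marked cells of Young1, Young2 and AY_Y3 and at 2675, 2804 and 2471 CPM in capillary-marked cells, so the classes overlapped. Its log2 fold change was -0.31 ± 0.15 (edgeR adjusted p = 0.670). Tek, the angiopoietin receptor, was at 309.7, 305.5 and 355.0 CPM in arterial-marked cells and 428.4, 378.7 and 380.9 CPM in capillary-marked cells, without overlap, and the log2 fold change was -0.27 ± 0.18 (edgeR adjusted p = 0.812). Tie1, its partner, was at 315.6, 433.7 and 374.6 CPM in arterial-marked cells and 312.3, 468.7 and 467.2 CPM in capillary-marked cells, with -0.13 ± 0.24 (edgeR adjusted p = 0.954). For Tek and Tie1 the sign of the difference turned in limma on mean log2 values, where the median of all genes also stood at 0.17.

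None of the 7 genes passed in edgeR between arterial-marked and capillary-marked cells, where 0.331% of the 9074 genes tested passed, and 3 had an unadjusted p under 0.05, against 8.41% of genes. DESeq2 and limma each passed 4, namely Kdr, Nrp1, Angpt2 and Vegfc. The sets did not overlap for 5 of the 7, against 15.7% of genes: 4 were lower in arterial-marked cells in all sets, against 8.83% of genes, and 1 was higher, against 6.89%. Angpt2 (lower) and Vegfc (higher) are among these 5. Angpt2 reached the filter's share of 5% of classed cells only through capillary-marked cells, and Vegfc only through arterial-marked cells. The separation of these genes is therefore not independent of the filter. The median log2 fold change of the 7 was -0.31, against -0.08 over all genes tested.

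**Figure D2:**
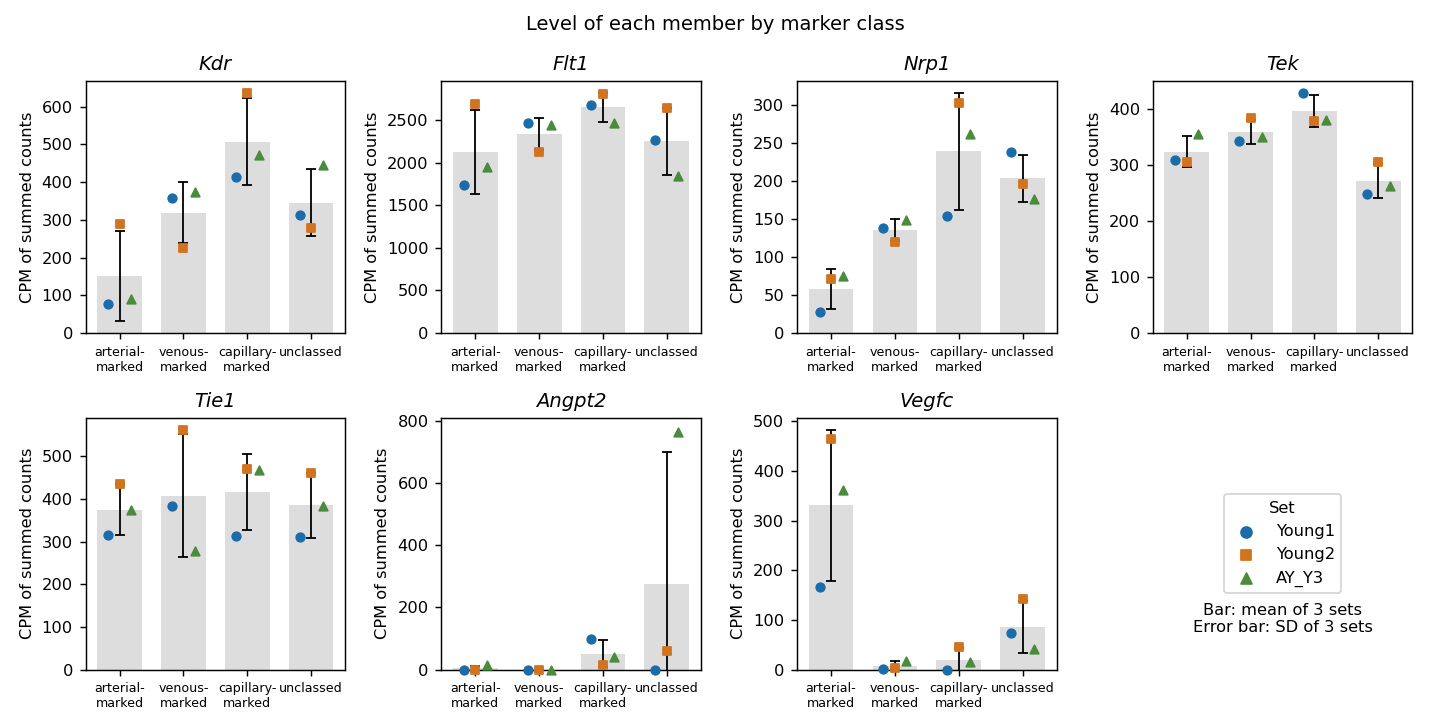
Bars are the mean over 3 sets of the CPM in summed counts, error bars the SD, and points the sets, for arterial-marked, venous-marked, capillary-marked and unclassed cells. By the means, Kdr and Nrp1 stood lowest and Vegfc highest in arterial-marked cells, but in Young2 Kdr was lower in venous-marked cells. Angpt2 was at 0 in venous-marked cells, and the classes overlapped for Tie1.

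The arterial-marked cells had a smaller Kdr share of the pooled Kdr and Flt1 counts: 6.11% ± 3.15 in arterial-marked, 11.9% ± 1.98 in venous-marked and 15.97% ± 2.53 in capillary-marked cells (SD, n = 3 sets). In Young2 the arterial-marked share of 9.74% was above the venous-marked share of 9.60%. This share includes transcript length and is read only between classes. Kdr was counted in 35 of 99 arterial-marked cells (35.4%), 79.3% of venous-marked cells and 70.5% of capillary-marked cells, so detection was highest in venous-marked cells and the share of pooled counts in capillary-marked cells. Thinned to equal depth, the shares were 27.3%, 68.5% and 63.7% of the same classes. Genes per cell at equal depth differed by class: medians were 1626 to 2090 per set in arterial-marked, 2139 to 2396 in venous-marked and 1411 to 1690 in capillary-marked cells. The part of this in the shares was not tested.

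In arterial-marked cells 2 of 10 pericyte markers were counted, and their sum was 46.9 to 146.4 CPM per set. In venous-marked cells 5 of 10 were counted, at 137.8 to 259.1 CPM, and in capillary-marked cells 9 of 10 were counted, at 128.01 to 252.2 CPM. The markers at 0 in venous-marked cells were Pdgfrb, Kcnj8, Abcc9, Ndufa4l2 and Cspg4. All of them were also at 0 in arterial-marked cells, as were Vtn, Atp13a5 and Notch3. In capillary-marked cells Cspg4 alone was at 0. The part of pericyte transcripts in the differences was not tested.

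Arterial-marked cells with and without Gkn3 were set side by side, with no test. Of the 49 cells with Gkn3, 46.9% had a count of Kdr and 40.8% of Nrp1, against 24% and 12% of the 50 cells without Gkn3. Vegfc was counted in 57.1% of the cells with Gkn3 and 38% of those without it, but its mean level was 371.6 CPM with and 405.4 CPM without Gkn3. The sets disagreed: Vegfc was lower with Gkn3 in Young1 and Young2, but in AY_Y3 it was 514.1 CPM with and 202.9 CPM without. Detection of the other receptors was 100% with and 98% without Gkn3 for Flt1, 77.6% and 78% for Tek, and 79.6% and 74% for Tie1. Kdr means of 136.01 CPM with and 154.3 CPM without Gkn3 did not follow the share of cells. Kdr too was lower with Gkn3 in Young1 and Young2, but in AY_Y3 it was 119.4 CPM with and 42.3 CPM without. Nrp1 means were 113.3 CPM with and 9.04 CPM without Gkn3, higher with Gkn3 in each of the 3 sets.

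Between venous-marked and capillary-marked cells none of the 7 passed in edgeR, where 0.011% of genes tested passed; 1 had an unadjusted p under 0.05, against 4.56% of genes. DESeq2 passed Angpt2 alone of the 7, and limma passed Angpt2 and Tek. The limma value for Tek was 1.45, higher in venous-marked cells, against -0.17 in edgeR. Limma also gave positive values for Kdr, Flt1, Nrp1 and Tie1, but its median over all genes was positive too. Kdr, Flt1 and Nrp1 lay below that median, and Tek and Tie1 above it. Kdr was at 358.2, 225.6 and 373.7 CPM in venous-marked cells of Young1, Young2 and AY_Y3, below the capillary-marked value in each set, with a log2 fold change of -0.59 ± 0.46. Nrp1 was at 138.7, 120.3 and 148.96 CPM in venous-marked cells, with -0.76 ± 0.35. The sets did not overlap for 4 of the 7 (Kdr, Flt1, Nrp1 and Angpt2, lower in venous-marked cells), against 13.6% of genes in either direction, 6.42% lower and 7.17% higher. For Angpt2 this is not independent of the filter, which it passed only through capillary-marked cells. The median of the 7 was -0.59, against -0.01 over all genes.

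Angpt2, the context-dependent Tek ligand, was counted in 3 of 99 arterial-marked cells (3.03%), in no venous-marked cell and in 21 capillary-marked cells (8.86%). The count of 0 in venous-marked cells, pooled over sets, has an exact 95% interval reaching 3.27% of cells (2.70% by the rule of 3 counts). Its CPM in summed counts was 0, 0 and 14.2 in arterial-marked cells of Young1, Young2 and AY_Y3, 0 in venous-marked cells of every set, and 98.3, 15.1 and 40.999 in capillary-marked cells. The edgeR adjusted p was 0.672 for venous-marked and 0.634 for arterial-marked against capillary-marked cells. Unclassed cells held 10 of the 34 Angpt2 cells and 59.004% of its CPM, a share of 43.7% without the highest cell.

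Arterial-marked against venous-marked cells showed the clearest separation for Vegfc. Vegfc was at 165.7, 464.5 and 362.2 CPM in arterial-marked cells of Young1, Young2 and AY_Y3, against 1.89, 3.60 and 18.4 CPM in venous-marked cells, a ratio of 19.7 to 129.2 set by set. The log2 fold change was 5.87 ± 1.82 (edgeR adjusted p = 0.267), and 3 of 14 other settings passed. Nrp1 was lower in arterial-marked cells by -1.31 ± 0.35 log2 units (edgeR adjusted p = 0.185), a difference that was 0.11 with longer marker lists and close to 0 with classes set by detection alone. Kdr differed by -1.27 ± 0.48 (edgeR adjusted p = 0.388), and in Young2 the arterial-marked value was above the venous-marked one.

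None of the 7 passed in edgeR in this contrast, where 1.15% of genes did, and 3 had an unadjusted p under 0.05, against 10.8% of genes. DESeq2 passed 4 (Kdr, Nrp1, Angpt2 and Vegfc) and limma 3 (Kdr, Nrp1 and Vegfc). The Angpt2 call, higher in arterial-marked cells, rested on 3 arterial-marked cells, all of AY_Y3. Its fitted fold depends on the count of 0 in venous-marked cells. Sets did not overlap for 2 of the 7, against 18.2% of genes: Nrp1 was lower in arterial-marked cells, against 10.8% of genes, and Vegfc was higher, against 7.47%. For Vegfc this is not independent of the filter, which it passed only through arterial-marked cells. Fold changes of Flt1, Tek and Tie1 were -0.11 ± 0.15, -0.10 ± 0.18 and -0.04 ± 0.24. The median of the 7 was -0.10, against -0.08 over all genes. The 3 contrasts share samples, so their values are not independent.

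**Figure D3:**
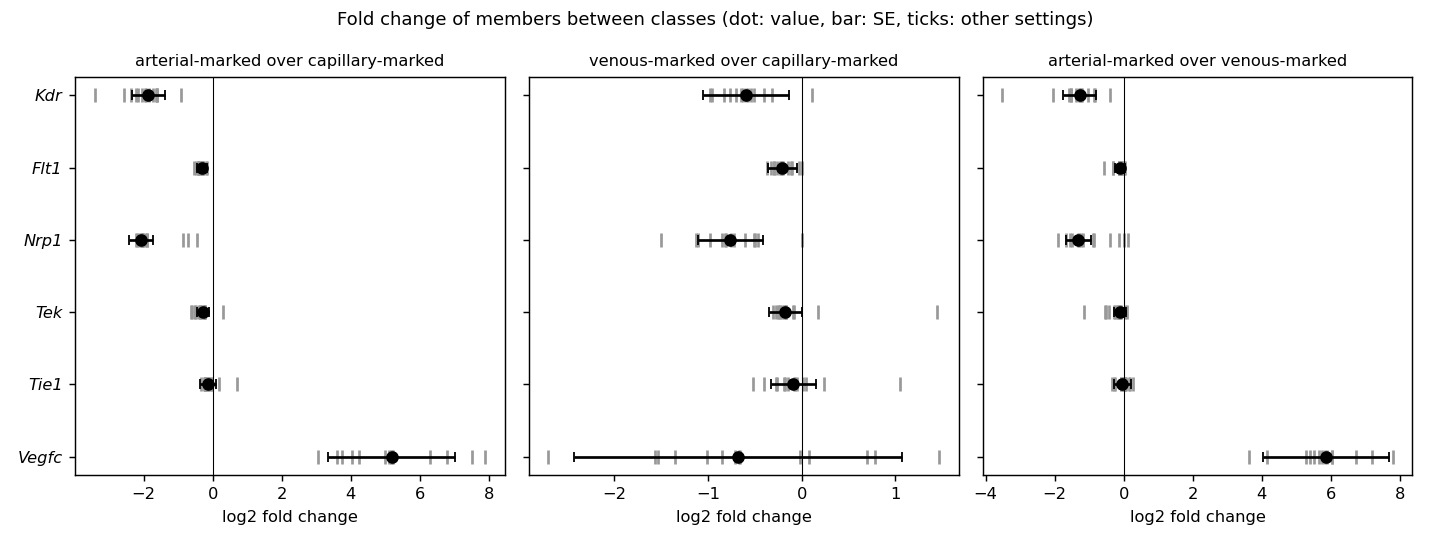
Dots are edgeR log2 fold changes of 6 of the genes for arterial-marked over capillary-marked, venous-marked over capillary-marked and arterial-marked over venous-marked cells, bars the SE, and grey ticks the same value under other settings; the horizontal axes differ. Angpt2 is left out because its fitted fold depends on classes at 0. Vegfc lay to the right and Kdr and Nrp1 to the left where arterial-marked cells were compared with the others, and no dot passed the adjusted threshold.

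The Vegfc cells were mostly arterial-marked: 47 of the 83 were arterial-marked, 4 venous-marked, 8 capillary-marked and 24 unclassed. Arterial-marked cells held 62.2% of all Vegfc CPM. The share of cells with a count was 47.5% (exact 95% interval 37.3 to 57.8) in arterial-marked, 3.60% (0.99 to 8.97) in venous-marked and 3.38% (1.47 to 6.54) in capillary-marked cells. After thinning it was 44.4%, 2.70% and 3.38%, so depth changed it little. By set, 7 of 20, 21 of 42 and 19 of 37 arterial-marked cells of Young1, Young2 and AY_Y3 had a count. The exact intervals pool the cells of these sets and leave out the spread between sets.

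**Figure D4:**
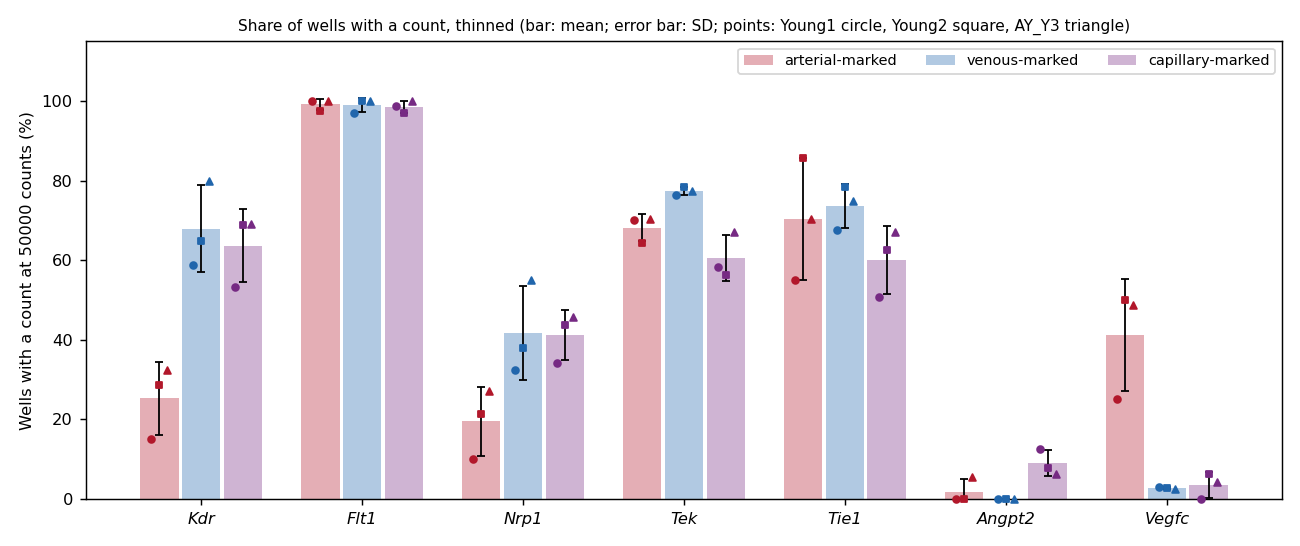
Bars are the mean over 3 sets of the percentage of cells with a count after thinning every cell to 50000 counts, error bars the SD, and points the sets, with arterial-marked, venous-marked and capillary-marked cells side by side. Kdr and Nrp1 were counted least often and Vegfc most often in arterial-marked cells, and Flt1 was near 100% throughout.

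Cells split at 10 CPM of each marker on its own gave the same direction for both markers of a pair for some genes and not for others. Kdr averaged 180.7 ± 68.3 CPM in cells with Bmx and 428.7 ± 8.14 CPM in cells without it, lower with Bmx in each set. Vegfc averaged 316.7 ± 93.7 CPM with Bmx and 43.5 ± 15.1 CPM without it. Nrp1 averaged 216.5 ± 39.6 CPM in cells with Rgcc and 105.6 ± 13.4 CPM in cells without it, higher with Rgcc in each set, but 175.02 ± 20.3 CPM in cells with Cxcl12 and 181.2 ± 59.96 CPM in cells without it. With Bmx, Nrp1 averaged 134.5 ± 64.2 CPM, against 192.6 ± 23.99 CPM without it, but in Young1 it was higher with Bmx. The venous markers disagreed for Kdr, which averaged 275.3 ± 17.997 CPM with Il1r1 and 403.2 ± 28.4 CPM without it, but 420.7 ± 112.7 CPM with Nr2f2 and 378.2 ± 45.6 CPM without it. Tek averaged 443.8 ± 59.01 CPM with Il1r1 and 341.7 ± 25.4 CPM without it, higher with Il1r1 in each set. With Nr2f2 it averaged 388.1 ± 83.6 CPM, against 350.4 ± 42.5 CPM without it, and was lower with Nr2f2 in Young1.

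Co-expression was weak. Of the 21 pairs of the 7 genes, 16 had a mean Spearman correlation within 0.1 of 0 across cells (log2(CPM + 1), mean of 3 sets). The highest was Kdr with Flt1 at 0.23, but it was 0.32 in Young1, 0.08 in Young2 and 0.28 in AY_Y3. Kdr with Nrp1 stood at 0.16 and Tek with Tie1 at 0.13. The lowest was Kdr with Vegfc at -0.21, between -0.24 and -0.18 in every set. Cells of a set differed widely in total counts and may share library preparation. Correlations this weak in sparse counts are given as a description only.

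**Figure D5:**
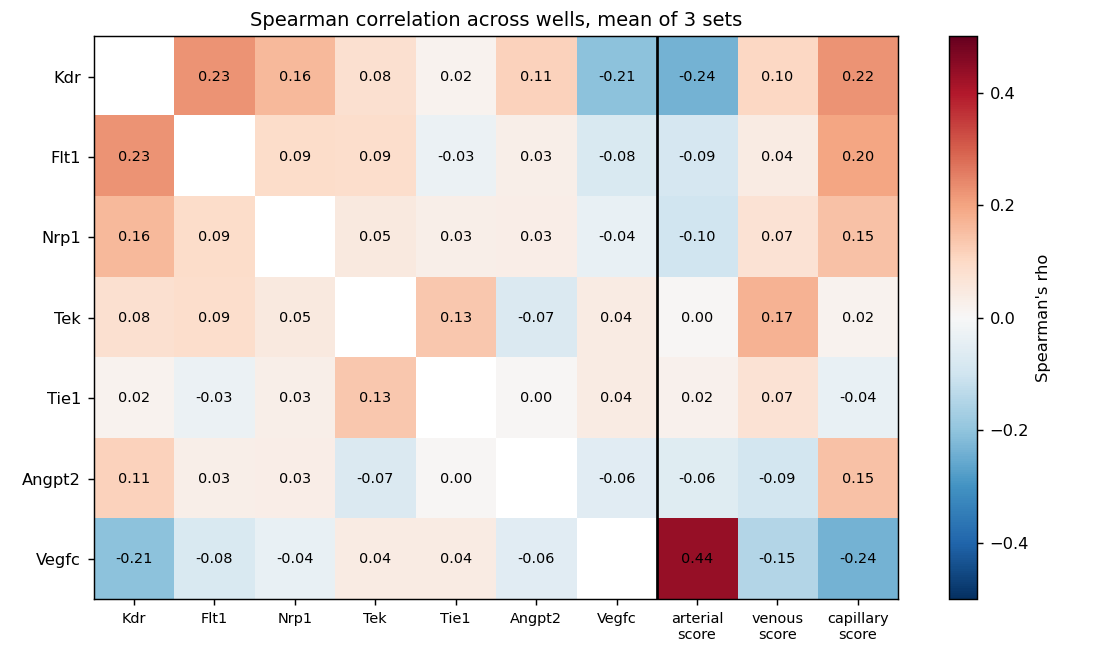
Colours and numbers are Spearman correlations across cells, averaged over 3 sets, between the 7 genes and, right of the line, between each gene and the arterial, venous and capillary marker scores. Vegfc with the arterial score was the strongest value at 0.44, and Kdr was negative with the arterial score and positive with the capillary score.

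With the marker scores themselves, Vegfc reached 0.44 for the arterial pair, with Kdr at -0.24 and Nrp1 at -0.10. Kdr stood at 0.22, Flt1 at 0.20, Nrp1 at 0.15 and Angpt2 at 0.15 with the capillary score, and Tek at 0.17 with the venous score. Kdr was counted in 40.96% of the 83 Vegfc cells and in 67.4% of the other cells. These Vegfc cells were mostly arterial-marked, and the part of class in this difference was not tested. There were 2 cells that had a count of both Angpt2 and Vegfc.

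Kdr stood higher beside Angpt2: it averaged 665.2 ± 137.6 CPM in the 34 cells with Angpt2 and 366.4 ± 30.5 CPM in the others (SD over sets, n = 3), higher in each set. Tek averaged 198.6 ± 132.6 CPM in cells with Angpt2 and 367.9 ± 27.9 CPM without it, but in Young2 it was 348.7 CPM with and 342.4 CPM without Angpt2. Cxcl12, the capillary chemokine, averaged 4157 ± 275 CPM in cells with Angpt2 and 2356 ± 61.2 CPM without it. The split was not made within a class. Of the cells with Angpt2, 21 were capillary-marked, 3 arterial-marked, 0 venous-marked and 10 unclassed. Kdr per cell averaged 516.2 CPM in capillary-marked, 141.7 CPM in arterial-marked, 338.6 CPM in venous-marked and 369.7 CPM in unclassed cells. Summed pericyte markers were 339.2 CPM in cells with Angpt2 and 129.3 CPM in the others. The parts of class and of pericyte transcripts in the Kdr level were not tested.

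The 3 genes most like each member, by mean Spearman correlation over 635 cells among 6840 candidates counted in at least 10% of cells, had low values for every gene but Vegfc. Vegfc stood nearest to Mgp at 0.56, Laptm5 at 0.52 and Clu at 0.51; Mgp, a matrix protein, is on the longer arterial list used as an alternative. Kdr stood nearest to Gatm at 0.35, Slc7a5 at 0.34 and Ctla2a at 0.33, where Slc7a5 encodes a large amino-acid transporter of the blood-brain barrier. Flt1 had Slc7a5 at 0.25, Slco1c1 at 0.25 and Sptbn1 at 0.23, where Slco1c1 encodes a thyroid hormone transporter of that barrier. Nrp1 had Car4 at 0.25, Ivns1abp at 0.23 and Slc38a5 at 0.22. Of these, Ivns1abp is on the longer capillary list and Slc38a5 on the longer venous list.

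Angpt2 had Htra3 at 0.21, Adm, the vasoactive peptide adrenomedullin, at 0.19 and Megf6 at 0.19. Adm averaged 435.5 ± 127.4 CPM in cells with Angpt2 and 76.1 ± 37.4 CPM in the others. It was counted in 32.4% of the cells with Angpt2 and 10.1% of the others. Because Adm was picked by its correlation with Angpt2 in these same cells, this difference adds no separate support. Tek had Sema6a at 0.20, Hs3st1 at 0.19 and Xdh at 0.19. Tie1 had Usp8, Phip and Gm17936, all at 0.17, where the 99th percentile of all candidates was 0.13. After thinning these 3 stood at 0.14, 0.12 and 0.08.

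Over all genes tested, 0.331%, 0.011% and 1.15% passed in edgeR for arterial-marked against capillary-marked, venous-marked against capillary-marked and arterial-marked against venous-marked cells, and the median log2 fold changes were -0.08, -0.01 and -0.08. Of the other VEGF family, 2 of the 6 genes in the table were tested and none passed in any contrast: Flt4, the VEGF-C receptor, and Nrp2, its coreceptor. Flt4 was at 91.8 CPM in arterial-marked, 205.8 CPM in venous-marked and 228.2 CPM in capillary-marked cells, with an edgeR adjusted p of 0.244 for arterial-marked against capillary-marked cells. Nrp2 was at 3.99 CPM in arterial-marked, 93.8 CPM in venous-marked and 20.3 CPM in capillary-marked cells (edgeR adjusted p = 0.262 for arterial-marked against venous-marked cells). The median log2 fold change of these 2 genes was -2.14 for arterial-marked against capillary-marked, 1.30 for venous-marked against capillary-marked and -3.44 for arterial-marked against venous-marked cells.

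Of the other angiopoietin and Tie2 genes, 3 of 6 were tested and none passed. Ptprb, the phosphatase VE-PTP that acts on TEK, was at 1229 CPM in arterial-marked, 1616 CPM in venous-marked and 1347 CPM in capillary-marked cells, and Foxo1, a transcription factor under TEK signalling, at 83.7, 192.5 and 181.6 CPM in the same classes. The median was -1.19, 0.19 and -1.19 for the 3 contrasts in the order above.

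Of the VEGF receptor signalling list, 13 of 15 genes were tested, and Sema3c alone passed, in 1 contrast, where 1.15% of all genes passed. Sema3c encodes a semaphorin that binds neuropilins. It fell to 206.8 ± 22.3 CPM in arterial-marked cells, against 662.2 ± 106.6 CPM in venous-marked cells, lower in 3 of 3 sets, and the log2 fold change was -1.64 ± 0.25 (edgeR adjusted p = 0.0314), and 7 of 14 other settings passed. Ets1, an endothelial transcription factor, was at 304.1, 225.8 and 359.5 CPM in arterial-marked, venous-marked and capillary-marked cells and passed in no contrast. The list's median was -0.06, -0.53 and 0.50 for the 3 contrasts.

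Of the sprouting and tip cell list, 7 of 12 genes were tested and none passed. Cd34, a sialomucin, was at 1806 CPM in arterial-marked, 1280 CPM in venous-marked and 2064 CPM in capillary-marked cells, and Pdgfb, which recruits pericytes, at 380.1, 225.8 and 317.0 CPM in the same classes. The list's median was -0.18, -0.73 and 0.56. Some genes chosen after their values were seen stood at the edge of detection: Vegfa was counted in 11 cells and Angpt1 in 6 cells of 635. The tip cell genes Apln, Esm1 and Plvap were counted in 2, 4 and 5 cells; both Apln cells also had Angpt2, and none of the Esm1 or Plvap cells did.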

How the data were processed

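The authors deposited whole-number counts of reads per gene symbol and cell, with no normalization. Bowtie 0.12.2 and the builds mm8 and mm10 are named in the submitters' processing notes with no role; how reads were assigned to genes, and whether by strand, is not given in the sources used here. No 2 wells had identical counts, and no other RefSeq gene in the table overlapped an exon of the 7 genes. CPM is a count scaled to a total of 1000000 for the cell or the sum, with a pseudocount of 1 on the log2 scale. Wells above 2000 CPM on any list of other cell types were left out, and no doublet caller was run. Scores are log2 values standardised within each set and averaged over the marker pair. Cells are not replicates, so raw counts were summed by set and class into 9 sums. edgeR 4.0.16 in R 4.3.3 (TMM, quasi-likelihood, set as block, 4 residual degrees of freedom) tested the 9074 genes that passed its expression filter and were counted in 5% or more of classed cells, without the 6 markers. The threshold was a Benjamini-Hochberg adjusted p of 0.05. SEs were derived from the fold change and the F statistic. The same set gives each class, so sets pair the sums. Tested on simulated counts, the fit called none of the changed genes at the smallest fold tried and a minority at the larger folds. It made almost no false calls. A gene that did not pass is therefore not shown to be equal between classes. Alternatives used DESeq2 1.42.0 and limma 3.58.1, thinned cells, other class rules, limits and filters, and each set left out. Members, lists and tests were chosen with earlier results of these data known. The text names the 7 genes, the 3 nearest genes of each, the 2 of highest level per pathway list and any list gene that passed.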

Additional observations from a re-analysis of the deposited data

Results flagged for a closer look

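The 110 wells left out for transcripts of other cell types were not used in any comparison, and all 7 genes were counted in them above the floor of 3 counts over these wells. Mean levels per cell there were 398.8 CPM for Kdr, 2478 CPM for Flt1, 193.5 CPM for Nrp1, 330.6 CPM for Tek, 241.1 CPM for Tie1, 34.8 CPM for Angpt2 and 35.7 CPM for Vegfc. In the 635 wells kept, the means were 381.9 CPM for Kdr, 2486 CPM for Flt1, 177.2 CPM for Nrp1, 357.4 CPM for Tek, 389.1 CPM for Tie1, 50.4 CPM for Angpt2 and 97.4 CPM for Vegfc. Flt1 was counted in all 110 wells left out, and Tie1 was counted in 51.8% of them against 69.9% of the wells kept. No test was made between the wells left out and those kept.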

How the results depend on the processing

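The share of tested genes past the threshold depended strongly on the method. It was 0.331% for arterial-marked against capillary-marked, 0.011% for venous-marked against capillary-marked and 1.15% for arterial-marked against venous-marked cells, in that order below. DESeq2 gave 7.66%, 2.55% and 10.7%. Limma on mean log2 values gave 5.79%, 5.19% and 10.5%; in limma the median log2 fold change of all genes was 0.17, 0.40 and -0.19, and its higher and lower calls were 415 and 110, 462 and 9, and 282 and 668. Without a filter on low counts the shares were 0.101%, 0% and 0.281%, after thinning 1.54%, 0% and 2.89%, with a margin of 0 they were 0.0765%, 0.0437% and 1.02%, with a margin of 1 they were 0.189%, 0% and 0.533%, by detection at 10 CPM 0.3003%, 0.0556% and 1.79%, with longer marker lists 1.29%, 0% and 1.71%, with a limit of 500 CPM for other types 0.0892%, 0% and 0.435%, and with no such limit 0.574%, 0% and 1.85%. For the shares of 0 in edgeR, between 402 and 618 genes had an unadjusted p under 0.05, except 341 at the limit of 500 CPM and 240 to 566 with a set left out. Leaving out each set gave 0% to 0.0219%, 0% to 0% and 0.0556% to 0.263%. Without Young1, Young2 and AY_Y3 in turn the shares were 0.0219%, 0.0113% and 0% in the first contrast and 0.263%, 0.0676% and 0.0556% in the last. Without the replicate block they were 0.463%, 0.0661% and 1.74%, and no call of the 7 genes changed. Of 288 fold changes of the 7 genes under other settings, 25 passed where the main value did not and 28 changed sign (Tek in limma for venous-marked against capillary-marked cells did both), and the others kept direction and call; the cause was not tested. Changed signs were, in limma, 0.11 for Kdr, 0.0071 for Flt1, 0.0094 for Nrp1, 1.45 for Tek and 1.05 for Tie1 in venous-marked against capillary-marked cells, and 0.31 for Tek and 0.70 for Tie1 in arterial-marked against capillary-marked cells. By detection they were 0.0022 for Nrp1 in arterial-marked against venous-marked, and 0.18 for Tek and 0.048 for Tie1 in venous-marked against capillary-marked cells. With longer lists they were 0.11 for Nrp1 and 0.18 for Tie1 in arterial-marked against venous-marked, 0.20 for Tie1 in arterial-marked against capillary-marked, and 0.020 for Tie1 and 0.70 for Vegfc in venous-marked against capillary-marked cells. In arterial-marked against venous-marked cells they were 0.095 for Tek and 0.27 for Tie1 with the limit of 500 CPM, and for Tie1 0.025 with no limit, 0.016 after thinning and 0.054 at a margin of 1. For Vegfc in venous-marked against capillary-marked cells they were 0.080 after thinning and 0.78 at a margin of 1. With each set left out, log2 fold changes for arterial-marked against venous-marked cells ran from -0.32 to 0.028 for Flt1, -0.17 to 0.028 for Tek and -0.25 to 0.14 for Tie1. For venous-marked against capillary-marked cells they ran from -1.56 to 1.47 for Vegfc (positive without Young2) and -0.27 to 0.24 for Tie1 (positive without AY_Y3). The mean of Angpt2 in AY_Y3 was 87.6 CPM with and 49.3 CPM without its highest cell, a setting added after seeing the data. Thinning moved 7 of 21 shares of cells with a count beyond their interval and 1 of 21 pair correlations beyond the SD over sets. With 3 sets and sparse counts, differences of ligands counted in 34 or 83 cells are poorly resolved.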
